A study of Homo sapiens with 18 samples.

Results

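The mitotic genes described here are 40 genes whose products start, drive or finish cell division. They were chosen by name, with earlier results of these data known. Their values were read from the deposited expression table, where all 40 were found among 23571 named genes. By role they comprise 6 genes for the A and B cyclins, CDK1 and its activating CDC25 phosphatases, 5 mitotic kinases, 4 genes of the spindle checkpoint and its target, 2 genes that act at the start of anaphase, 6 kinesins, 6 centromere and kinetochore proteins, 3 chromosomal passenger subunits, 5 proteins of the spindle, midzone and cytokinesis, 2 chromosome proteins and 1 transcription factor. All 40 passed the filter on low values (at least 1 FPKM in at least 3 libraries), which 12809 genes passed. FPKM are fragments scaled to transcript length and to the size of the library, here by a library scaling that the labels do not name.

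RNA was sequenced from SW48, a human colon adenocarcinoma cell line, in 18 libraries that form 6 groups of 3. Every group received either siCHD4, an siRNA against the chromatin remodelling ATPase of the NuRD complex, or a control siRNA, and did so in 1 of 3 backgrounds. In the siDNMT1 background, the siCHD4 plus siDNMT1 and the control siRNA plus siDNMT1 cells both had siRNA against the maintenance DNA methyltransferase on days 1, 3 and 5, siCHD4 or control siRNA on days 7 and 8, and RNA taken on day 11. In the decitabine background, the siCHD4 plus decitabine and the control siRNA plus decitabine cells both had 50 nM decitabine, a nucleoside analogue that traps DNA methyltransferases, on days 1, 2 and 3, with siCHD4 or control siRNA on days 1 and 2 and RNA on day 5. In the third background, siCHD4 or control siRNA was given alone on days 1, 3 and 6, with RNA on day 8. The siCHD4 comparison within a background shares its schedule, so the design asks what CHD4 knockdown does alone and when DNA methylation is lowered in either of 2 ways. Comparisons with control siRNA alone do not share a schedule, and there treatment and schedule cannot be told apart. Whether replicates were grown as separate cultures is not stated in the labels, and p-values reflect spread among libraries that may be technical in origin.

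A cell enters mitosis when cyclin B bound to CDK1 becomes active, and it leaves mitosis when the anaphase-promoting complex, with CDC20 as its partner, marks cyclin B and securin for destruction. The spindle checkpoint (MAD2L1, BUB1B, BUB3, BUB1, TTK) holds CDC20 back until every kinetochore has a microtubule. Most of these genes are transcribed in G2 and mitosis and are held low in resting cells by the DREAM complex, whose MuvB core binds a promoter element called the cell cycle genes homology region (CHR). In division itself they are switched on by MuvB with B-MYB and FOXM1, and by NF-Y at CCAAT boxes. In a bulk culture, fewer cells in G2 or mitosis and less of a transcript in each such cell cannot be told apart.

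The targeted genes were measured first. CHD4 stood at 29.0, 27.1 and 29.1 FPKM in siCHD4 plus siDNMT1, against 63.7, 67.1 and 73.9 FPKM in control siRNA plus siDNMT1, which is 41.6% of the control mean. In the decitabine background it stood at 55.6, 56.5 and 52.6 FPKM in siCHD4 plus decitabine, against 66.8, 80.2 and 81.5 FPKM in control siRNA plus decitabine, or 72.1%, a difference that did not pass the test (adjusted p = 0.0752, limma). With siRNA alone it stood at 39.0, 31.8 and 23.2 FPKM in siCHD4, against 59.1, 61.2 and 68.2 FPKM in control siRNA, or 49.9%. DNMT1 averaged 12.3 ± 1.15 FPKM in control siRNA plus siDNMT1 and 44.7 ± 0.892 FPKM in control siRNA (SD, n = 3 each), or 27.6%. CHD4 was thus lower in all 9 siCHD4 libraries than in any control library of the same background, with the smallest difference in the decitabine background.

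The libraries differed in ways that touch some members. In 4 of them long transcripts were lower: the slope of log2 FPKM against transcript length was -0.21 to -0.12 per doubling of length in siCHD4 replicates 0 and 1, control siRNA plus decitabine replicate 0 and control siRNA replicate 2, against -0.01 to 0.09 in the other 14. CENPE, the kinesin that carries chromosomes to the spindle equator and whose transcript is 8742 bases long, had 6.26, 10.7, 5.39 and 3.71 FPKM in those 4 libraries and 17.2 to 26.3 FPKM elsewhere. The control siRNA plus decitabine replicate 0 library was also the shallowest, with 1 fragment worth 4.12 times as much as in control siRNA replicate 0, as read from 5988 low genes. Counts of members called with siCHD4 within a background are therefore given with and without these 4 libraries. Some counts against control siRNA without them are given at the end. In each of the 18 libraries, 11477 to 12502 genes reached 1 FPKM. Of the 8 colon epithelial markers, EPCAM ran from 131 to 279 FPKM and CDX2 from 31.1 to 71.0 FPKM, while CDX1 and LGALS4 stayed under 1 FPKM. The 6 fibroblast markers summed to 0.121 to 15.0 FPKM, led by LUM at up to 11.8 FPKM with COL3A1 at 0 throughout, and the 4 endothelial markers to at most 0.529 FPKM.

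The members were expressed in every library. Their means over the 18 libraries ran from 12.0 FPKM for CDC25C, a phosphatase that activates CDK1, to 188 FPKM for UBE2C, the ubiquitin-conjugating enzyme that works with the anaphase-promoting complex. The level of a member varied little inside a group: the median coefficient of variation was 6.31% in siCHD4 plus siDNMT1, 5.39% in control siRNA plus siDNMT1, 7.15% in siCHD4 plus decitabine and 6.87% in control siRNA. It was 12.8% in control siRNA plus decitabine and 12.3% in siCHD4, the groups that hold 3 of the 4 libraries with lower long transcripts. In group means, 23 members were lowest in siCHD4 plus siDNMT1 and 9 in siCHD4 plus decitabine. None was highest in either of those groups, while 13 were highest in siCHD4, 11 in control siRNA, 9 in control siRNA plus siDNMT1 and 7 in control siRNA plus decitabine.

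**Figure D1:**
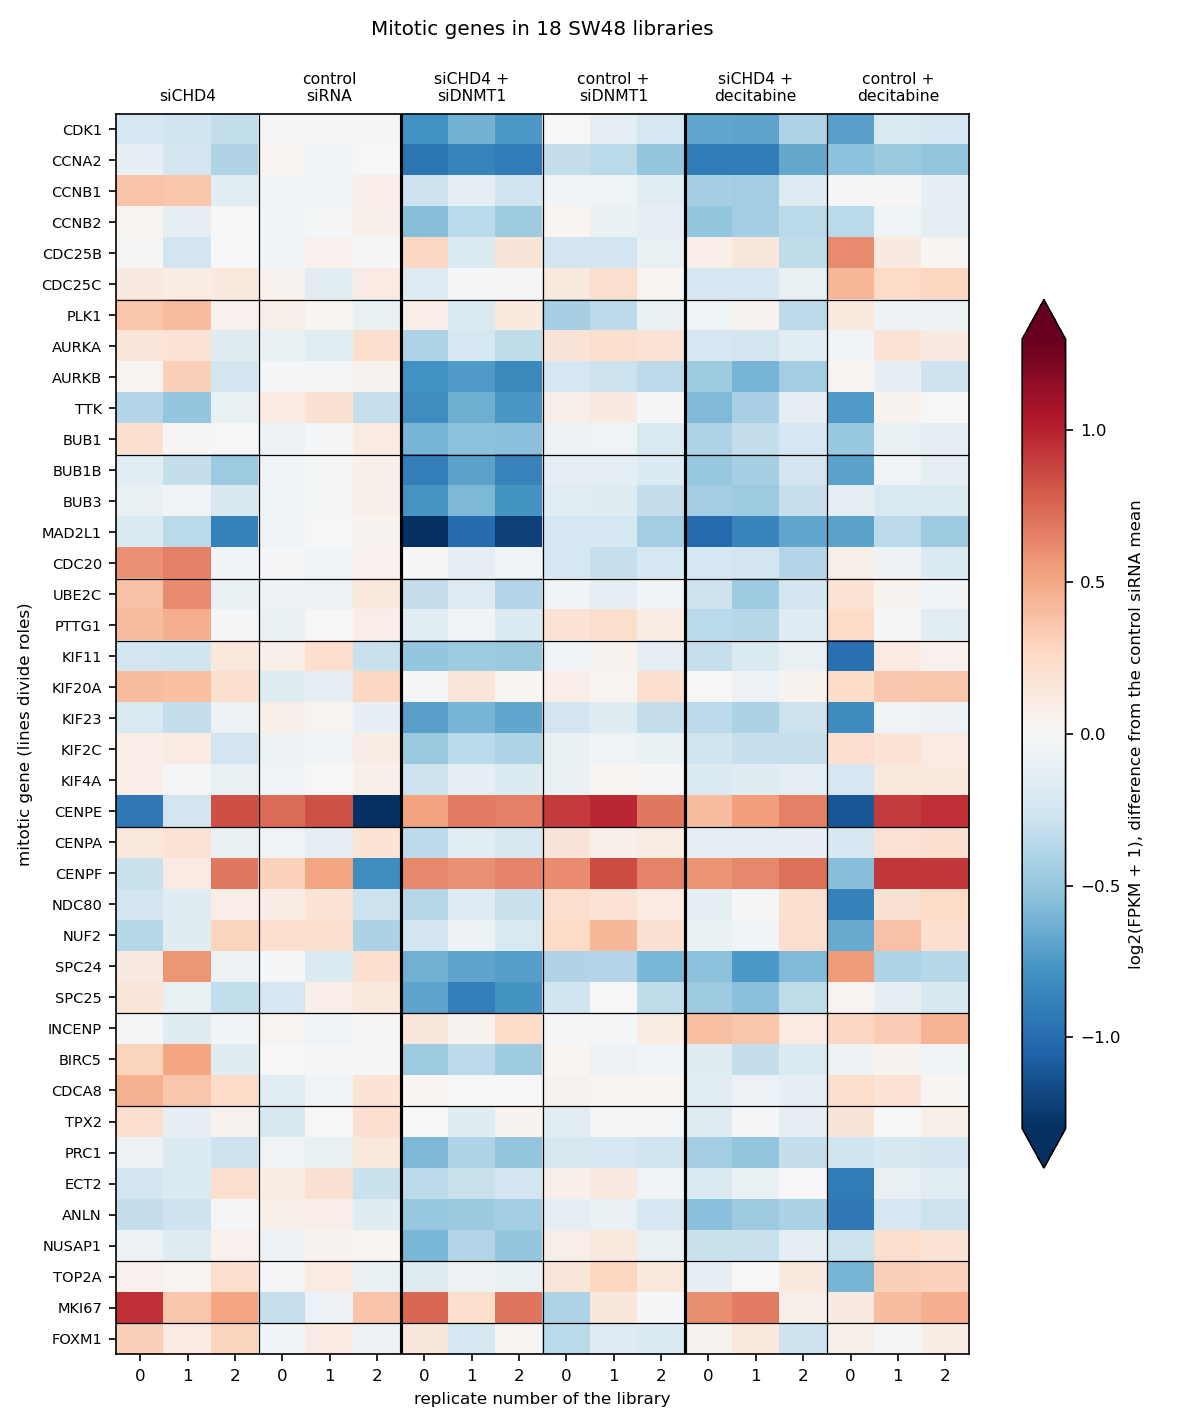
Heat map of the 40 mitotic genes (rows, by role) in the 18 libraries (columns, by group, with each siCHD4 group left of its control). Colour gives log2(FPKM + 1) minus the mean of the control siRNA libraries, with blue for lower. Most rows are blue in the 3 siCHD4 plus siDNMT1 columns, and CENPE is blue in the 4 libraries with lower long transcripts and red elsewhere.

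The promoters of these genes are shown because the members share elements that the choice of names did not use. RefSeq (GRCh38.p14) gave a promoter, 250 bases before to 50 after the annotated start, for 33 of the 40 members. AURKA, TTK, BUB3, UBE2C, BIRC5, TPX2 and FOXM1 were not matched. The CHR core, searched as TTTGAA or TTCGAA on both strands, was in 23 of 33 member promoters (69.7%) and in 16.4% of all 35116 promoters in the table. CCAAT, also on both strands, was in 25 (75.8%) against 34.6% of all promoters. Both kinds of element were in 19 (57.6%) against 6.38%. For each member the first promoter listed was used, whereas every entry was counted among all promoters. With 1 promoter for each of 9177 tested genes, the shares were 10.6% for the CHR core, 37% for CCAAT and 4.61% for both. The CHR core lay within 50 bases of the start in 19 members (57.6%) and in 5.01% of all promoters. A match is a run of letters and not a measured binding site. Shown here are CDK1, CCNB2, MAD2L1 and PRC1, which hold both elements and fell with siCHD4 in the siDNMT1 background, and MKI67, the gene of the proliferation marker Ki-67, which rose. They were chosen after their values were seen. Capitals mark TTTGAA and CCAAT, the second also where it is read on the other strand as ATTGG.
CDK1 (chr10:60778081-60778380, + strand): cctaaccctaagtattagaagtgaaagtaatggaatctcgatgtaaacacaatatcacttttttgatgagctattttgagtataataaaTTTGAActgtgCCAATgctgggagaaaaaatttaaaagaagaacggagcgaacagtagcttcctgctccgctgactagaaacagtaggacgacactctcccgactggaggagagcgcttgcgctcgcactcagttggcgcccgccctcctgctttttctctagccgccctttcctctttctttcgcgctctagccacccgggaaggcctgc
CCNB2 (chr15:59104896-59105195, + strand): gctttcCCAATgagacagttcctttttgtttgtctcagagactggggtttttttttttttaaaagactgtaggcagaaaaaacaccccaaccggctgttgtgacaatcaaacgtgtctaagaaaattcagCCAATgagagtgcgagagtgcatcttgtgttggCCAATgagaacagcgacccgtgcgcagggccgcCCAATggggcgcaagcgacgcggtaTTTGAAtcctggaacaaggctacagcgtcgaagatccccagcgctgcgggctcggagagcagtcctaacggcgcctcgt
MAD2L1 (chr4:120066799-120067098, - strand): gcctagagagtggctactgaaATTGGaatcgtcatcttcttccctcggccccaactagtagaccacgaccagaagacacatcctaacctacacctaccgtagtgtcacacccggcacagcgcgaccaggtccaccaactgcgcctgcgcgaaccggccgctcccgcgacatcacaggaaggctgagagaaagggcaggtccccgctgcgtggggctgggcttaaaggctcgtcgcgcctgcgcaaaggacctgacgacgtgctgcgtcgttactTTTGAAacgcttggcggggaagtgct
PRC1 (chr15:90994486-90994785, - strand): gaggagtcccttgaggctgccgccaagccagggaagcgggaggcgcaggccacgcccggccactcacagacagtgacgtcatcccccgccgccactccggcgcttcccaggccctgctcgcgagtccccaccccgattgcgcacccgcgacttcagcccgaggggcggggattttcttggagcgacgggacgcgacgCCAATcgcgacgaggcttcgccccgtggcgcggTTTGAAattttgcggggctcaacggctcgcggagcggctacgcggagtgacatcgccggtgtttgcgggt
MKI67 (chr10:128126374-128126673, - strand): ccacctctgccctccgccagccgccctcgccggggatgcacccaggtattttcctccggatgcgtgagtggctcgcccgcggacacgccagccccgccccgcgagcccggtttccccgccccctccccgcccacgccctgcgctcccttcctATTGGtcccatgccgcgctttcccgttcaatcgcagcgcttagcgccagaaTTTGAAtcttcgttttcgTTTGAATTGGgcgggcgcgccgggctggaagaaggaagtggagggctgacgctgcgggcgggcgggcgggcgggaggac
Counted in bases from the start, CDK1 has its CHR core at -161 and its CCAAT box at -150. CCNB2 has 4 CCAAT boxes from -244 to -54 and then a CHR core at -29, and in PRC1 the CCAAT box lies at -53 and the CHR core at -20. In MAD2L1 the CHR core lies past the start, at 24. MKI67 carries 2 CHR cores and 2 CCAAT boxes, of which the last pair shares 1 base, and it is the member that rose.

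In cells with lowered DNMT1, adding siCHD4 lowered much of the mitotic set in the deposited values, and less of it after quantile normalization. Of the 40 members, 17 fell and 1 rose (limma, adjusted p below 0.05), where 24.6% of all 12809 genes fell and 24.8% rose (49.4% in either direction). The median log2 change was -0.33 over the members and -0.01 over all genes tested, and 33 members (82.5%) lay below 0 against 50.8% of all genes. In 30 members all 3 siCHD4 plus siDNMT1 libraries lay below all 3 control siRNA plus siDNMT1 libraries, and in 2 they lay above, where 36.4% of all genes lay below and 33.7% above. The fallen members included cyclin A2, CDK1, both Aurora kinases and the core of the spindle checkpoint.

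CDK1, the kinase that drives entry into mitosis (chr10:62538089-62554610, GRCh37, + strand), had 80.8, 91.2 and 83.2 FPKM in siCHD4 plus siDNMT1, against 141, 129.9 and 119 FPKM in control siRNA plus siDNMT1. CCNA2, its S and G2 phase cyclin (chr4:122737599-122745038, - strand), had 39.6, 42.1 and 40.9 FPKM in siCHD4 plus siDNMT1, against 62.5, 60.9 and 54.5 FPKM in control siRNA plus siDNMT1. CCNB2, the B2 cyclin (chr15:59397325-59417244, + strand), had 63.2, 72.8 and 67.7 FPKM in siCHD4 plus siDNMT1, against 95.05, 87.8 and 86.9 FPKM in control siRNA plus siDNMT1. The groups did not overlap for any of these genes. The log2 changes were -0.61 for CDK1 (SE 0.12, adjusted p = 0.00081), -0.52 for CCNA2 (SE 0.09, adjusted p = 2.0e-04) and -0.40 for CCNB2 (SE 0.09, adjusted p = 0.0016). CCNB1, the main mitotic cyclin and the third most abundant member, did not pass: it had 128, 143 and 131 FPKM in siCHD4 plus siDNMT1, against 153, 149.9 and 142 FPKM in control siRNA plus siDNMT1, and its log2 change of -0.14 had a 95% interval of -0.40 to 0.11. Of the phosphatases that activate CDK1, CDC25C changed by -0.20 (adjusted p = 0.070) and CDC25B by 0.27 (adjusted p = 0.17), neither of which passed.

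The largest fall of any member was that of MAD2L1 in the spindle checkpoint. MAD2L1, which binds CDC20 and blocks it (chr4:120976778-120988013, - strand), had 47.7, 63.5 and 54.3 FPKM in siCHD4 plus siDNMT1, against 109, 109 and 93.0 FPKM in control siRNA plus siDNMT1, or 53.2% of the control mean. BUB1B, the BubR1 subunit of the checkpoint complex (chr15:40453224-40513324, + strand), had 33.9, 38.9 and 34.3 FPKM in siCHD4 plus siDNMT1, against 58.7, 58.8 and 56.2 FPKM in control siRNA plus siDNMT1. BUB3, which brings BUB1 and BubR1 to kinetochores (chr10:124913918-124929983, + strand), had 80.3, 91.3 and 79.5 FPKM in siCHD4 plus siDNMT1, against 124, 123 and 110.3 FPKM in control siRNA plus siDNMT1. All 9 siCHD4 plus siDNMT1 values of these genes lay below their controls. The log2 changes were -0.90 for MAD2L1 (SE 0.16, adjusted p = 3.3e-04), -0.68 for BUB1B (SE 0.14, adjusted p = 9.6e-04) and -0.50 for BUB3 (SE 0.08, adjusted p = 1.8e-04). CDC20, the target that the checkpoint restrains, did not follow: it had 82.5, 74.8 and 79.1 FPKM in siCHD4 plus siDNMT1, against 69.8, 66.3 and 69.9 FPKM in control siRNA plus siDNMT1, all 3 above, with a log2 change of 0.20 that did not pass (adjusted p = 0.24). The checkpoint and its target thus did not move as a block. Their transcripts differ in GC content: 57.9% for CDC20, against 38.4% for MAD2L1, 43.1% for BUB1B and 41.1% for BUB3. The slope of log2 FPKM per 10% of GC was -0.13, -0.16 and -0.05 in control siRNA plus siDNMT1. In siCHD4 plus siDNMT1 it was 0.09, 0.03 and 0.07. Its part in the contrast between these genes was not tested.

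Of the 5 mitotic kinases, 4 fell. AURKA, which builds the spindle poles (chr20:54944445-54967393, - strand), had 50.2, 56.7 and 52.8 FPKM in siCHD4 plus siDNMT1, against 75.1, 77.1 and 76.1 FPKM in control siRNA plus siDNMT1. AURKB, the kinase of the chromosomal passenger complex (chr17:8108051-8113918, - strand), had 34.4, 35.8 and 33.1 FPKM in siCHD4 plus siDNMT1, against 51.6, 49.3 and 47.1 FPKM in control siRNA plus siDNMT1. Both fell by 0.51 on the log2 scale (adjusted p = 0.0013 for AURKA and 0.0018 for AURKB). TTK, the checkpoint kinase MPS1, averaged 27.2 ± 1.73 FPKM in siCHD4 plus siDNMT1 and 47.9 ± 2.28 FPKM in control siRNA plus siDNMT1 (SD, n = 3 each; log2 change -0.80, adjusted p = 0.0028). BUB1 fell by 0.45 on the log2 scale (adjusted p = 0.0022). PLK1, the polo-like kinase needed for spindle assembly and cytokinesis, overlapped between the groups. Its log2 change was 0.30 (95% interval 0.03 to 0.57, adjusted p = 0.065). PLK1 and CDC20 thus lay on the other side of 0 from the kinases and checkpoint genes that fell. The GC content of the PLK1 transcript is 57.1%. It is 46.6% for AURKA, 55.6% for AURKB, 40.8% for TTK and 42.1% for BUB1, which fell.

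At the kinetochore, SPC25 of the NDC80 complex (chr2:169690642-169769881, - strand) had 18.7, 15.9 and 17.4 FPKM in siCHD4 plus siDNMT1, against 25.3, 30.3 and 24.1 FPKM in control siRNA plus siDNMT1 (log2 change -0.59, adjusted p = 0.0018). CENPA, the histone variant that marks the centromere, fell by 0.34 on the log2 scale (adjusted p = 0.024). The other members of the complex, NDC80, NUF2 and SPC24, had log2 changes of -0.45, -0.47 and -0.22 that did not pass, although their groups did not overlap either. Among the 6 kinesins, all lay below 0 and 2 fell: KIF2C, which takes microtubules apart at centromeres, by 0.34 (adjusted p = 0.0049) and KIF23 of the midzone by 0.42 (adjusted p = 0.029). KIF11, which pushes the spindle poles apart, changed by -0.44 with an SE of 0.22 and did not pass, nor did KIF20A (-0.06), KIF4A (-0.18) or CENPE (-0.24), or the kinetochore protein CENPF (-0.08).

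Of the proteins that bundle and cut, NUSAP1, a microtubule-bundling protein (chr15:41612992-41673248, + strand), had 59.97, 69.7 and 63.8 FPKM in siCHD4 plus siDNMT1, against 96.1, 100.02 and 85.7 FPKM in control siRNA plus siDNMT1 (log2 change -0.54, adjusted p = 0.0018). PRC1, which crosslinks midzone microtubules, fell by 0.27 (adjusted p = 0.011). TPX2, ECT2 and ANLN did not pass, with log2 changes of 0.03, -0.34 and -0.33. In the chromosomal passenger complex, BIRC5 (survivin) fell by 0.38 (adjusted p = 0.016), while INCENP (0.13) and CDCA8 (-0.03) did not pass. At the start of anaphase, UBE2C had 154, 170.2 and 146 FPKM in siCHD4 plus siDNMT1, against 187, 177 and 188 FPKM in control siRNA plus siDNMT1, with no overlap but an adjusted p of 0.18, and PTTG1 (securin) changed by -0.29 (adjusted p = 0.062). TOP2A, the topoisomerase that untangles sister chromatids, had 149, 159 and 156 FPKM in siCHD4 plus siDNMT1, against 186, 203 and 183 FPKM in control siRNA plus siDNMT1, with a log2 change of -0.30 that did not pass (adjusted p = 0.17).

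MKI67, named here after its values were seen because it was the only member that rose, had 39.98, 27.8 and 38.5 FPKM in siCHD4 plus siDNMT1, against 17.6, 26.2 and 23.3 FPKM in control siRNA plus siDNMT1. The groups did not overlap, with a log2 change of 0.64 (SE 0.22, adjusted p = 0.024). Its transcript is the longest of the members at 12716 bases, and with the trend of each library with transcript length and GC content removed it was not called. FOXM1, the transcription factor that activates many of the other members, changed by 0.22 and did not pass (adjusted p = 0.13).

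The promoter elements were present both in members that fell and in members that did not. Of 13 fallen members with a promoter, 10 held a CHR core and 9 held both elements. Of 19 members that were not called and had a promoter, 12 held a CHR core and 9 held both. MKI67, whose promoter is printed above, held both.

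The size of the fall in the siDNMT1 background, and its excess over all genes, depended on the scaling. After quantile normalization the members' median was -0.16 with 12 lower and 4 higher, beside 26.7% of all genes lower and 22.7% higher. With the length and GC trends removed the median was -0.17 with 14 lower and 0 higher, beside 27.8% and 22.2%. In both settings the share of members lower was nearer that of all genes than in the deposited values. There it was 42.5% against 24.6%. Without the 4 libraries above, none of which is in this comparison but which enter the shared estimate of spread, 29 members were lower and 3 higher, beside 34.7% and 32.4% of all genes.

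**Figure D2:**
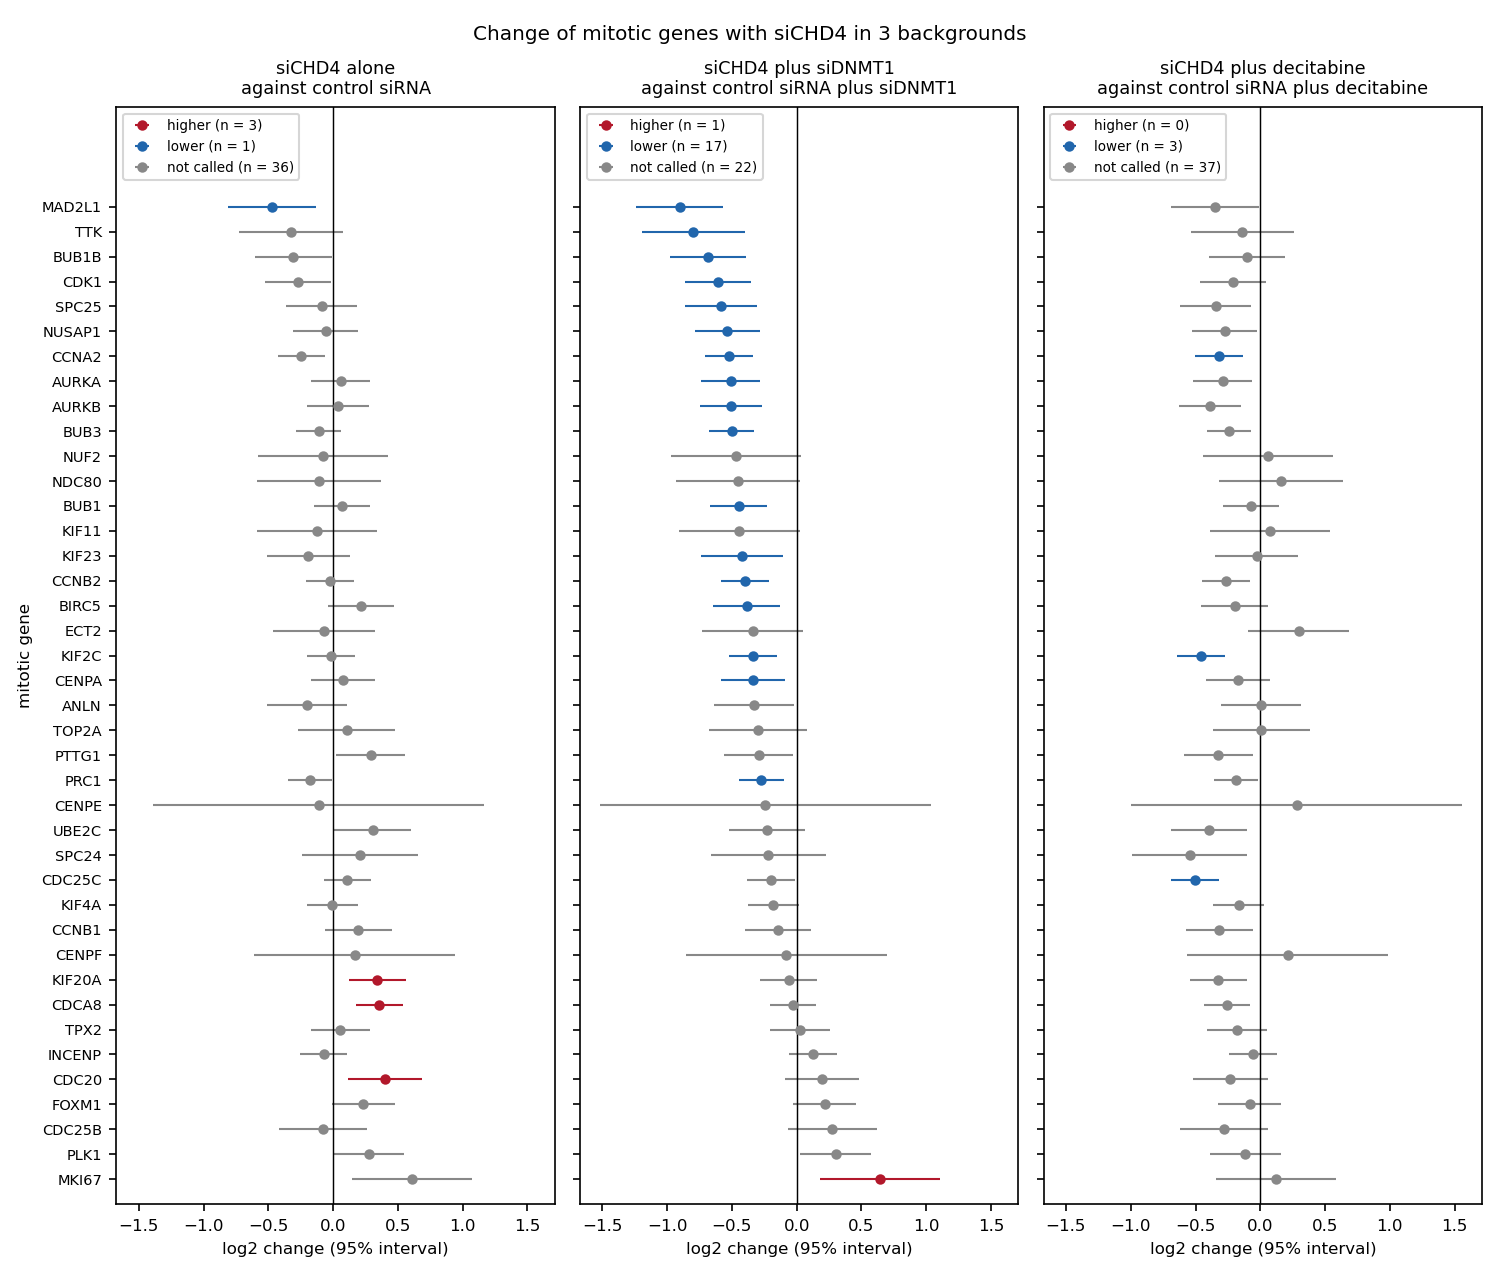
Log2 change (x axis) of each of the 40 members (rows, in order of their change in the siDNMT1 background) with siCHD4 alone (left), in the siDNMT1 background (middle) and in the decitabine background (right). Points are changes with 95% intervals, blue where called lower and red where called higher: 1 and 3 members on the left, 17 and 1 in the middle, 3 and 0 on the right.

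In the decitabine background, siCHD4 lowered 3 members and raised 0, where 1.31% of all genes fell and 3.26% rose (4.57% in either direction). At an unadjusted p below 0.05, 17 of the 40 members differed, as did 19.7% of all genes. The median log2 change was -0.19 over the members and 0.01 over all genes, and 31 members (77.5%) lay below 0 against 47.7% of all genes. In 18 members all 3 siCHD4 plus decitabine libraries lay below all 3 control siRNA plus decitabine libraries, and in 0 they lay above, where 13.2% and 13.8% of all genes did.

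CDC25C (chr5:137620958-137674044, - strand) had 9.63, 9.69 and 10.6 FPKM in siCHD4 plus decitabine, against 15.8, 13.9 and 14.1 FPKM in control siRNA plus decitabine (log2 change -0.50, SE 0.09, adjusted p = 0.0025). KIF2C (chr1:45205490-45233439, + strand) had 48.3, 47.0 and 47.0 FPKM in siCHD4 plus decitabine, against 67.7, 66.0 and 62.7 FPKM in control siRNA plus decitabine (log2 change -0.46, SE 0.09, adjusted p = 0.0057). CCNA2 had 40.8, 40.9 and 48.5 FPKM in siCHD4 plus decitabine, against 53.4, 55.1 and 54.0 FPKM in control siRNA plus decitabine (log2 change -0.32, SE 0.09, adjusted p = 0.049), a call that held in 3 of 18 fits that left out a library (largest adjusted p = 0.21). None of these genes overlapped between the groups. The most abundant members did not pass: UBE2C had 158, 138 and 162 FPKM in siCHD4 plus decitabine, against 219, 198 and 187 FPKM in control siRNA plus decitabine (log2 change -0.40, adjusted p = 0.13), and CCNB1 had 116, 114 and 139 FPKM in siCHD4 plus decitabine, against 155, 158 and 145 FPKM in control siRNA plus decitabine (log2 change -0.32, adjusted p = 0.16). TOP2A had 155, 167 and 183 FPKM in siCHD4 plus decitabine, against 109.5, 206 and 206 FPKM in control siRNA plus decitabine, where the lowest value is that of replicate 0, the shallow library with lower long transcripts.

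The count depended on the libraries with lower long transcripts. Without the 4 libraries with lower long transcripts, of which only control siRNA plus decitabine replicate 0 is in this comparison, 24 of the 40 members were lower and 0 higher, where 6.61% of all genes were lower and 8.1% higher. The members' median was then -0.28, and 38 lay below 0. Among the members called there but not with all libraries were CDK1 (log2 change -0.38, adjusted p = 0.021), CCNB1 (-0.31, adjusted p = 0.035), AURKA (-0.35, adjusted p = 0.0025), NUSAP1 (-0.43, adjusted p = 0.0063) and TOP2A (-0.29, adjusted p = 0.023). CENPE had a log2 change of -0.40 without them (adjusted p = 0.017) and of 0.28 with all libraries (SE 0.60). Without control siRNA plus decitabine replicate 0 alone, 6 members were lower, with no share of all genes given to set beside them. The comparison then rests on 2 control libraries, and CHD4 itself was at 72.1% of its control in this background.

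With siCHD4 alone the members did not shift as a set. Of the 40, 1 fell and 3 rose, where 9.71% of all genes fell and 9.58% rose, and the median log2 change was -0.01 over the members against 0.00 over all genes. In 4 members the siCHD4 libraries lay wholly below the control siRNA libraries and in 1 wholly above, where 16.9% and 16.6% of all genes did. CDCA8, the borealin subunit of the chromosomal passenger complex (chr1:38158153-38175391, + strand), had 38.5, 35.9 and 33.1 FPKM in siCHD4, against 25.1, 26.9 and 31.5 FPKM in control siRNA, and rose by 0.36 on the log2 scale (SE 0.08, adjusted p = 0.0086). KIF20A, a midzone kinesin (chr5:137514408-137523412, + strand), had 41.4, 40.8 and 36.2 FPKM in siCHD4, against 27.6, 28.5 and 37.5 FPKM in control siRNA (log2 change 0.34, adjusted p = 0.032). CDC20 (chr1:43824652-43828874, + strand) had 124, 129 and 79.8 FPKM in siCHD4, against 80.6, 80.0 and 85.1 FPKM in control siRNA (log2 change 0.40, adjusted p = 0.049). MAD2L1 had 112, 99.97 and 68.9 FPKM in siCHD4, against 123, 128 and 132 FPKM in control siRNA, and fell by 0.47 (adjusted p = 0.049).

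The siCHD4 libraries split in several members: replicates 0 and 1, which have lower long transcripts and 39.0 and 31.8 FPKM of CHD4, were apart from replicate 2, which has 23.2 FPKM of CHD4. CDC20 was high in replicates 0 and 1 only, and without the 4 libraries its log2 change was -0.0079. UBE2C had 250.3, 293 and 181 FPKM in siCHD4, against 183, 182 and 211 FPKM in control siRNA, and CCNB1 had 203, 200.4 and 141 FPKM in siCHD4, against 150.2, 153 and 167 FPKM in control siRNA, with neither called (adjusted p = 0.13 and 0.27). TOP2A, in contrast, had 173, 171 and 196 FPKM in siCHD4, against 165, 179 and 157 FPKM in control siRNA, with a log2 change of 0.11 (adjusted p = 0.72). Without the 4 libraries, 4 members were lower (MAD2L1, BUB1B, CCNA2 and KIF2C) and 3 higher (CDCA8, KIF20A and CENPF), where 24.4% of all genes were lower and 21.2% higher. That fit has 1 siCHD4 library, which is assumed to vary like the other groups. Only the rise of CDCA8 was called in all 18 fits that left out a single library.

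**Figure D3:**
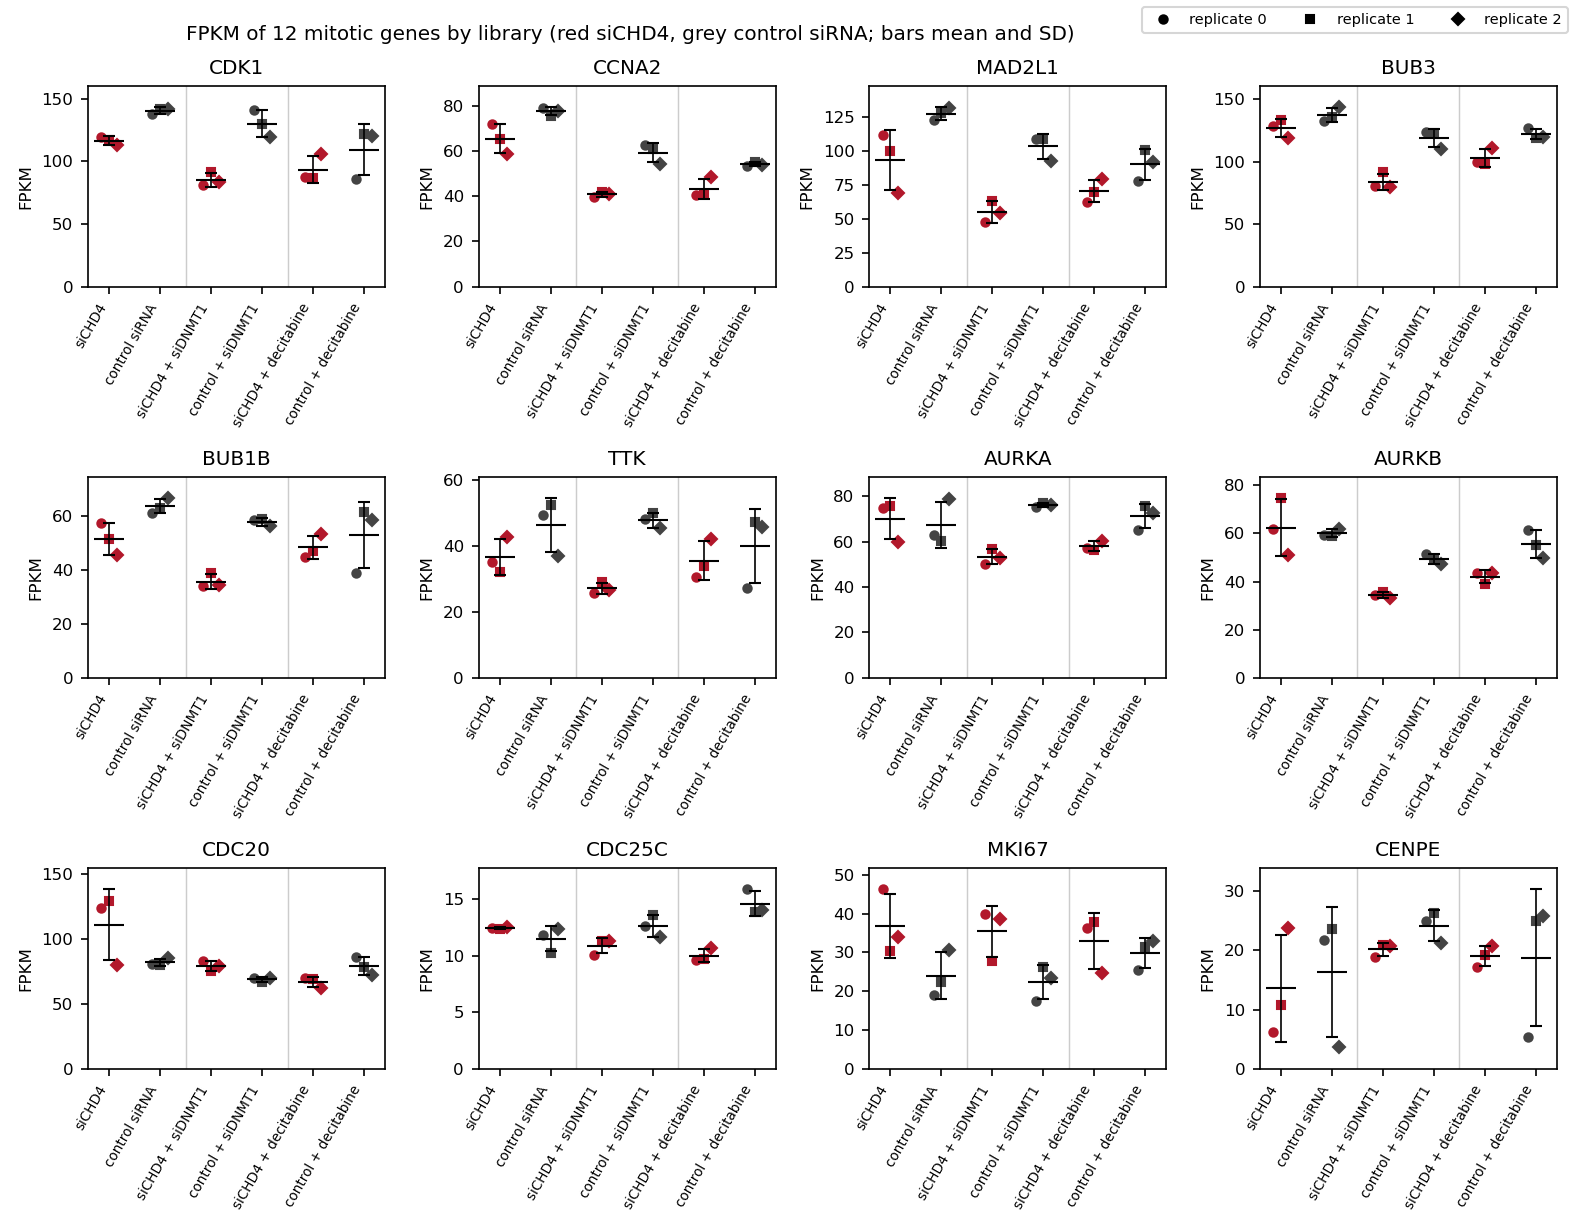
FPKM of 12 members in every library (points), by group, with each siCHD4 group left of its control; bars are the mean and SD of 3 libraries. CDK1, CCNA2, MAD2L1 and BUB1B are lower in siCHD4 plus siDNMT1 than in its control with no overlap, and CENPE is split inside the groups that hold libraries with lower long transcripts.

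The siCHD4 effects in the 3 backgrounds were then set side by side. No library is shared between the 3 siCHD4 comparisons. The backgrounds also differ in the days of siRNA and of RNA collection, so a difference between siCHD4 effects cannot be told apart from schedule. For 36 members (90%) the log2 change in the siDNMT1 background was below that of siCHD4 alone, against 51.6% of all genes. The median difference was -0.34 over the members and -0.01 over all genes. The comparison of siCHD4 alone holds siCHD4 replicates 0 and 1 and control siRNA replicate 2, which have lower long transcripts. Across the 40 genes, which are not independent replicates, the changes in the siDNMT1 background and alone had a Pearson r of 0.73, against 0.52 over all 12809 genes. The changes in the siDNMT1 and decitabine backgrounds had an r of 0.14, against 0.46 over all genes, and an r of 0.66 without control siRNA plus decitabine replicate 0. Those alone and in the decitabine background had an r of -0.10, against 0.26 over all genes, and of 0.39 without the same library. All 17 members that fell in the siDNMT1 background lay below 0 in the decitabine background, where 31 of all 40 members did. Of these 17, CCNA2 and KIF2C fell in both, CCNA2 at a limma adjusted p of 0.049 with decitabine. The matching share of all genes is not given. Below 0 in all 3 backgrounds were 13 members, and 18 were called in none. No share of all genes is given to set beside these counts.

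Tests of the difference itself called few members. The log2 change of AURKA with siDNMT1 minus that alone was -0.57 (SE 0.15, adjusted p = 0.047), and AURKA was 1 of 40 members called, where 1.29% of all genes were called lower and 2.83% higher. It stood at 74.6, 75.8 and 59.7 FPKM in siCHD4, against 63.0, 60.1 and 78.7 FPKM in control siRNA. Next in the same test were BUB1 (-0.52, adjusted p = 0.055), BIRC5 (-0.60, adjusted p = 0.063), AURKB (-0.54, adjusted p = 0.069) and BUB3 (-0.39, adjusted p = 0.071), none of which passed. The effect with decitabine was below the effect alone for CDCA8 (-0.61, SE 0.12, adjusted p = 0.019), CDC25C (-0.61, SE 0.12, adjusted p = 0.023) and KIF20A (-0.66, SE 0.15, adjusted p = 0.037), where 0.383% of all genes were called lower and 0.773% higher (1.16% in either direction). For CDCA8 the values behind this were 25.2, 26.3 and 25.2 FPKM in siCHD4 plus decitabine, against 32.6, 31.5 and 28.3 FPKM in control siRNA plus decitabine. Between the siDNMT1 and decitabine backgrounds limma called 0 members, where 4.24% of all genes were called lower and 4.16% higher (8.4% in either direction), with 11 members and 29% of all genes at an unadjusted p below 0.05. None of the 4 calls held in all 18 fits that left out a library. Without the 4 libraries with lower long transcripts, 5 members were called between the siDNMT1 and decitabine backgrounds. In that fit 17.4% of all genes were called lower and 12.1% higher.

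**Figure D4:**
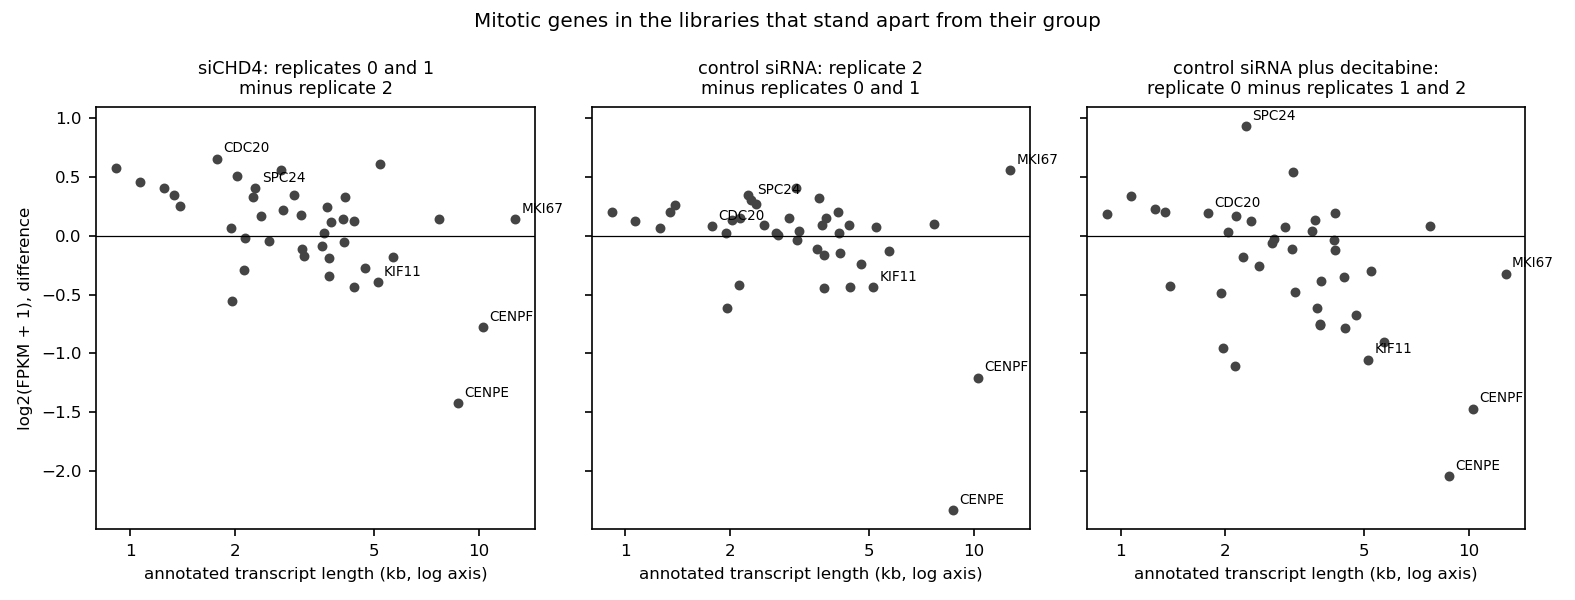
Difference in log2(FPKM + 1) between the libraries with lower long transcripts and the others of their group (y axis), for the 40 members (points), against transcript length in kilobases on a log axis, in siCHD4 (left), control siRNA (middle) and control siRNA plus decitabine (right). CENPE and CENPF, of 8742 and 10290 bases, lie lowest in all 3 panels, while MKI67, of 12716 bases, lies above 0 on the left and in the middle.

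Lowering DNA methylation without siCHD4 was compared with control siRNA. With siDNMT1, CCNA2 was the 1 member called, at 62.5, 60.9 and 54.5 FPKM in control siRNA plus siDNMT1, against 79.2, 75.7 and 77.9 FPKM in control siRNA (log2 change -0.38, adjusted p = 0.0083), where 4.4% of all genes fell and 6.94% rose. That call was lost without control siRNA plus siDNMT1 replicate 2 (adjusted p = 0.052). With decitabine, 4 members fell and 3 rose, where 8.63% and 9.6% of all genes did, so that the 17.5% of members called was close to the 18.2% of all genes. CCNA2 fell again, to 53.4, 55.1 and 54.0 FPKM in control siRNA plus decitabine (log2 change -0.51, adjusted p = 8.2e-04). ANLN, the scaffold of the cleavage furrow, had 56.2, 92.7 and 88.4 FPKM in control siRNA plus decitabine, against 114, 115 and 96.5 FPKM in control siRNA (log2 change -0.48, adjusted p = 0.033), and the lowest value is again that of replicate 0. MAD2L1 (-0.50, adjusted p = 0.039) and CDK1 (-0.38, adjusted p = 0.040) completed the fallen members. INCENP, the scaffold of the chromosomal passenger complex, had 19.8, 20.6 and 22.6 FPKM in control siRNA plus decitabine, against 16.7, 15.7 and 16.4 FPKM in control siRNA (log2 change 0.35, adjusted p = 0.012), and CDC25C (0.32, adjusted p = 0.018) and KIF20A (0.31, adjusted p = 0.046) also rose. Of these 7 calls CCNA2 alone held in all 18 fits that left out a library. CDC25C held in 16, INCENP in 16, ANLN in 15, CDK1 and MAD2L1 in 11 each and KIF20A in 4. After quantile normalization 1 member was lower and 5 were higher, where 7.18% of all genes were lower and 7.38% higher. With all libraries, CDC25C had its highest group mean, 14.6 ± 1.09 FPKM, in control siRNA plus decitabine and its lowest, 9.99 ± 0.567 FPKM, in siCHD4 plus decitabine (SD, n = 3 each).

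Both double treatments were also compared with control siRNA alone. These comparisons share their control libraries with those above and with each other. In siCHD4 plus siDNMT1, 18 members fell and 1 rose, where 29.8% of all genes fell and 29.3% rose. In siCHD4 plus decitabine, 14 fell and 1 rose, where 16.9% and 18% of all genes did (34.9% in either direction). The siCHD4 plus siDNMT1 libraries lay wholly below control siRNA in 23 members and wholly above in 2, where 35.7% and 34.8% of all genes did. The siCHD4 plus decitabine libraries lay wholly below in 21 and wholly above in 2, where 28.8% and 27% did. MAD2L1 averaged 55.2 ± 7.96 FPKM in siCHD4 plus siDNMT1, 70.6 ± 8.42 FPKM in siCHD4 plus decitabine and 128 ± 4.52 FPKM in control siRNA (SD, n = 3 each), with log2 changes of -1.21 and -0.85 against control siRNA. For CCNA2 the means were 40.9 ± 1.25, 43.4 ± 4.44 and 77.6 ± 1.77 FPKM in the same groups. The rise was in MKI67 with siDNMT1 and in INCENP with decitabine. After quantile normalization, siCHD4 plus siDNMT1 had 11 members lower and 3 higher, where 31.5% and 25.2% of all genes were, and siCHD4 plus decitabine had 5 lower and 1 higher, where 16.6% and 13.9% were. The share of members lower was then no greater than that of all genes in either comparison.

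Other genes of the division programme were tested in the same comparisons, first in the siDNMT1 background. The lists were written from general knowledge, with earlier results of these data known, and all 128 of their genes were tested. Their counts stand beside 24.6% of all genes lower and 24.8% higher in this comparison. Of 24 other kinetochore genes, 18 fell and 0 rose, with a median log2 change of -0.49. ZW10, which recruits dynein to kinetochores, averaged 12.5 ± 0.672 FPKM in siCHD4 plus siDNMT1 and 24.3 ± 1.45 FPKM in control siRNA plus siDNMT1 (SD, n = 3 each; log2 change -0.91, adjusted p = 5.8e-07), and DSN1 and ZWINT fell by 0.69 and 0.82. Of 13 anaphase-promoting complex genes, 7 fell and 0 rose, led by ANAPC5 (-0.68). Of 8 condensin genes, which compact mitotic chromosomes, 4 fell, among them NCAPH (-0.52) and NCAPG (-0.61). Of the 24 other spindle and cytokinesis genes, 6 fell (25%, about the share of all genes) and 4 rose: the kinesin KIF15 changed by -1.01, RACGAP1 by -0.48 and the kinase CIT by 0.65. None of the 11 cohesin and separase genes was called in limma with all libraries. Without the 4 libraries 5 fell and 3 rose, where 34.7% of all genes were lower and 32.4% higher.

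Genes that act before mitosis were counted next. Of 22 DNA replication genes, 21 fell and 0 rose, with a median log2 change of -0.81 against -0.33 over the mitotic members. RRM1, the large subunit of ribonucleotide reductase, averaged 60.4 ± 3.51 FPKM in siCHD4 plus siDNMT1 and 122 ± 6.30 FPKM in control siRNA plus siDNMT1 (SD, n = 3 each; log2 change -1.01), RFC4 of the clamp loader changed by -1.19 and POLE2 of polymerase epsilon by -1.31. Of 11 genes for G1 and S phase cyclins, kinases and E2F factors, 5 fell and 1 rose, with CCNE2 at -0.89, E2F1 at -0.67 and CDK2 at -0.36. Of 10 genes of the DREAM complex and MuvB, 6 fell and 0 rose, among them the MuvB subunits LIN52 (-0.60) and LIN9 (-0.64) and RBL1 (-0.54). Among 5 inhibitors of mitotic entry or of cyclin-dependent kinases, CDKN1A, which encodes p21, rose to 87.4 ± 2.49 FPKM in siCHD4 plus siDNMT1, against 42.8 ± 2.26 FPKM in control siRNA plus siDNMT1 (SD, n = 3 each; log2 change 1.02, adjusted p = 0.0016). CDKN1C (p57) rose by 1.03 and WEE1, the kinase that blocks CDK1, fell by 0.45. Replication genes fell in 21 of 22 cases also after quantile normalization, where 26.7% of all genes fell. With the length and GC trends removed 20 fell, where 27.8% of all genes did.

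In the decitabine background 0 of the 128 list genes fell in limma and 1 rose, CDK6 (0.66), while without the 4 libraries 11 of the 22 replication genes were lower, where 6.61% of all genes were. In the same setting 3 of 8 condensin genes, 5 of 24 other spindle genes, 4 of 24 other kinetochore genes and 3 of 11 genes for G1 and S phase were lower. Each of the other 4 lists had 1 gene lower, and 1 gene was higher in the G1 and S phase list and 1 among the inhibitors. With siCHD4 alone, 7 of 22 replication genes and 4 of 24 other kinetochore genes fell and 0 rose, where 9.71% of all genes fell. Without the 4 libraries, 18 replication genes were lower and 0 higher, and 9 other kinetochore genes were lower and 1 higher, where 24.4% of all genes were lower and 21.2% higher.

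**Figure D5:**
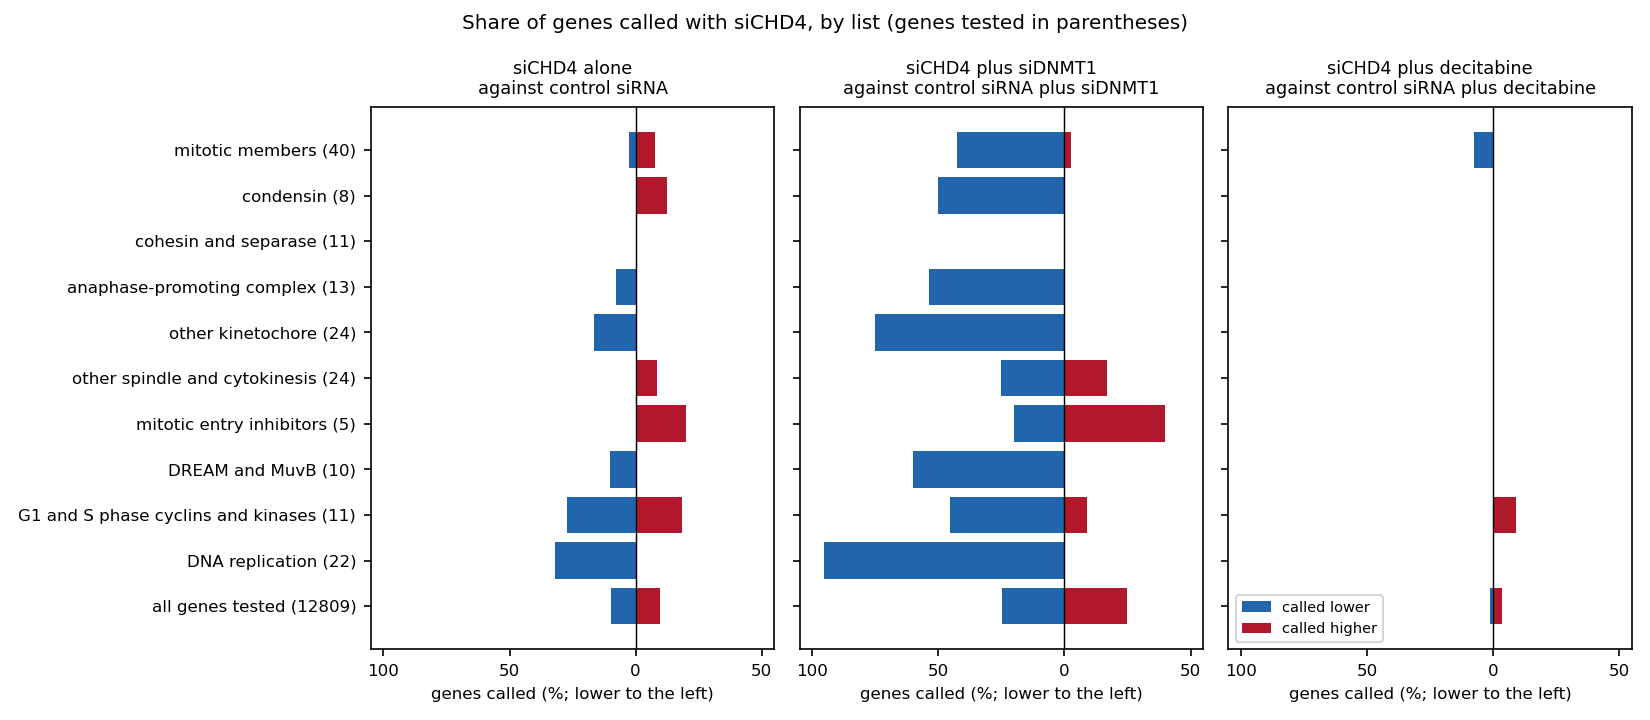
Percent of the genes in each list called lower (left of 0) or higher (right of 0) with siCHD4 against control siRNA, alone (left panel), in the siDNMT1 background (middle) and in the decitabine background (right), beside the percent of all 12809 genes tested. Replication genes reach 95.5% lower and the mitotic members 42.5% lower in the siDNMT1 background, where all genes stand at 24.6%.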

How the data were processed

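RNA of 18 SW48 libraries was sequenced from stranded total RNA after removal of ribosomal RNA, per the labels' protocols. The authors deposited 1 table of FPKM values. TopHat2 2.0.9, the hg19 genome and Cuffdiff 2.1.1 are named in the submitters' processing notes. No annotation, filter or library scaling is named there. FPKM are relative values, so a change is relative to the other genes of that library. Their sum ran from 765078 to 1727230 per library. The median log2 difference from control siRNA over all genes tested stayed between -0.0124 and 0.0302. Depth is unknown beyond the relative depth read from low genes, and no counting interval can be given. RNA was extracted with Trizol or RNeasy, per the labels' protocols, without saying which library had which.

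Of 23599 entries, 28 (0.119%) had dates in place of gene names and were left out. Values were analysed as log2(FPKM + 1), computed here from the deposited values, a scale that understates changes of low genes. limma 3.58.1 (lmFit and eBayes with a trend, R 4.3.3) fitted the 6 group means to the 12809 genes that reached 1 FPKM in 3 or more libraries, with 12 residual degrees of freedom. P-values were adjusted over all genes by Benjamini and Hochberg, and a gene was called at an adjusted p below 0.05. Adjusted p-values in the text are limma's. All 10 contrasts came from this fit, which was tested on simulated data.

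Members and lists were chosen with earlier results of these data known. Values per library were given for called members with the 10 smallest p-values in a comparison and for the 3 most abundant members, and up to 3 genes were named per list. Other named members, such as MKI67, TTK, CDC20 and CENPE in some comparisons, were chosen after their values were seen. No 2 libraries held identical values. Same-numbered libraries did not deviate together, so replicate numbers were not used as pairs. Gene positions and transcript lengths are from GENCODE v44lift37 (GRCh37), and promoters are from RefSeq (GRCh38.p14). Alternatives were another pseudocount, other filters, quantile normalization, a replicate block, library weights, only the compared groups and each library left out. Removal of length and GC trends and leaving out the 4 libraries with lower long transcripts were added after the data were seen.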

Additional observations from a re-analysis of the deposited data

Results flagged for a closer look

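The siCHD4 effect on 4 members differed between backgrounds in a test of the difference itself (limma, adjusted p below 0.05). The log2 change of AURKA with siDNMT1 minus that alone was -0.57. AURKA was 1 of 40 members called there (2.5%), where 4.12% of all genes were called. The log2 change with decitabine minus that alone was -0.61 for CDC25C, -0.66 for KIF20A and -0.61 for CDCA8. These were 3 of 40 members (7.5%), where 1.16% of all genes were called. None of these calls held in all 18 fits that left out a library: AURKA held in 3, KIF20A in 5, CDCA8 in 14 and CDC25C in 15. The backgrounds differ in schedule as well as in siDNMT1 or decitabine, and these cannot be told apart.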

How the results depend on the processing

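Counts are of the 40 members, with the count over all libraries in parentheses. The cause of each change was not tested. Percents beside counts are shares of all genes tested. Such shares are not given for fits that left out 1 library or changed the filter, the pseudocount or the block. Those counts show only how far the calls moved. Not every comparison and direction is listed for every setting, and a count that is absent is not to be read as 0. Leaving out each library in turn gave 0 to 4 lower (1) and 1 to 7 higher (3) with siCHD4 alone, 13 to 26 lower (17) and 0 to 3 higher (1) in the siDNMT1 background, and 2 to 8 lower (3) and 0 to 0 higher (0) in the decitabine background. Against control siRNA it gave 0 to 4 lower (1) and 0 to 0 higher (0) for siDNMT1, 1 to 5 lower (4) and 0 to 4 higher (3) for decitabine, 17 to 21 lower (18) and 0 to 1 higher (1) for siCHD4 plus siDNMT1, and 7 to 18 lower (14) and 0 to 2 higher (1) for siCHD4 plus decitabine. Differences between effects gave 0 to 16 calls (1) for siDNMT1 minus alone, 0 to 10 (3) for decitabine minus alone and 0 to 3 (0) for siDNMT1 minus decitabine. The 26 came without control siRNA plus decitabine replicate 0, and the 7, 8, 16 and 10 came without siCHD4 replicate 2. Of the 18 calls in the siDNMT1 background, 13 held in all 18 such fits.

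Library weights gave 10 lower and 14 higher with siCHD4 alone (24.1% and 22% of all genes), 29 and 6 in the siDNMT1 background (36.8% and 34.8%) and 28 lower in the decitabine background (14.3%). Against control siRNA they gave 11 and 4 for siDNMT1 (17.8% and 16.2%) and 9 and 11 for decitabine (23.2% and 20.6%). There were 2 higher for siCHD4 plus siDNMT1 (37.2%), and 25 lower and 2 higher for siCHD4 plus decitabine (30.5% and 28.8%). The differences in the order above had 28, 23 and 17 calls. Of all genes, 25% were lower and 23% higher in the first, 7.95% and 10.9% in the next and 24.1% and 19.8% in the last. Without the 4 libraries with lower long transcripts, 29 were lower and 3 higher in the siDNMT1 background (34.7% and 32.4%), and 24 lower in the decitabine background (6.61%). Against control siRNA there were 6 lower and 4 higher for siDNMT1 (14.5% and 13.6%) and 9 higher for decitabine (13.5%). There were 3 higher for siCHD4 plus siDNMT1 (34.1%), and 24 lower and 3 higher for siCHD4 plus decitabine (27% and 24.5%). The difference siDNMT1 minus decitabine had 5 calls (17.4% lower and 12.1% higher). With only the compared groups fitted, 0 were lower and 0 higher alone (1.89% and 2.12%). There were 28 lower and 2 higher in the siDNMT1 background (33.5% and 31%) and 1 lower in the decitabine background (0.125%). Against control siRNA, 5 were lower for siDNMT1 (11.6%), and 2 lower and 0 higher for decitabine (2.94% and 4.31%). There were 0 differences for decitabine minus alone (0.0625% lower and 0.265% higher) and 1 for siDNMT1 minus decitabine (7.82% and 7.06%).

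Removal of length and GC trends gave 0 lower and 6 higher alone (12.8% and 10.3%), 0 higher in the siDNMT1 background (22.2%) and 7 lower in the decitabine background (3.1%). Against control siRNA it gave 4 lower and 1 higher for siDNMT1 (9.63% and 7.99%). It gave 0 higher for either double treatment (26.3% with siDNMT1 and 15.1% with decitabine). There were 6, 6 and 1 differences. Of all genes, 2.62% were lower and 3.01% higher in the first, 0.796% and 1.09% in the next and 3.76% and 3.06% in the last. Quantile normalization gave 6 higher alone (7.99%) and 4 higher in the siDNMT1 background (22.7%). Against control siRNA it gave 2 higher for siDNMT1 (5.07%), and 1 lower and 5 higher for decitabine (7.18% and 7.38%). It gave 11 lower and 3 higher for siCHD4 plus siDNMT1 (31.5% and 25.2%) and 5 lower for siCHD4 plus decitabine (16.6%). There were 4, 6 and 1 differences. Of all genes, 2.44% were lower and 3.19% higher in the first, 0.39% and 0.671% in the next and 6.27% and 5.89% in the last. With no filter, 0 were lower alone, 2 lower for decitabine and 0 higher for siCHD4 plus siDNMT1 against control siRNA, with 3 differences for siDNMT1 minus alone. That difference had 0 calls with a pseudocount of 0.1 and 0 with a filter at 5 FPKM. With the replicate number as a block there were 0 lower alone, 17 lower in the siDNMT1 background, 2 lower in the decitabine background, 0 higher for siCHD4 plus siDNMT1 against control siRNA, 0 differences for siDNMT1 minus alone and 1 for decitabine minus alone. Residuals of same-numbered libraries correlated at -0.31 to 0.13, so the numbers are not read as pairs.

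Some log2 changes took the other sign. Under library weights, CENPF alone was -0.52, the decitabine background gave KIF11 -0.27, NDC80 -0.26, ANLN -0.21 and TOP2A -0.32, and CENPE in siDNMT1 minus alone was 1.13. Without the 4 libraries, CDC20 alone was -0.0079, the decitabine background gave KIF11 -0.28, CENPE -0.40, CENPF -0.28, ANLN -0.22 and TOP2A -0.29, CENPE in siCHD4 plus decitabine against control siRNA was -0.25 and CENPF in decitabine minus alone was -0.56. Under quantile normalization, CDC20 and PTTG1 in siCHD4 plus siDNMT1 against control siRNA were 0.27 and 0.26.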
